A study of Rattus norvegicus with 2 samples.

Results

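Myelin is the layered membrane that oligodendrocytes wrap around axons, and its proteins are made late in the life of the cell. Precursors, marked by the receptor gene *Pdgfra*, divide and then stop dividing. Newly formed oligodendrocytes express *Enpp6* or *Gpr17* for a short time before they become mature, myelinating cells. The genes described here are 9 myelin genes, *Mbp*, *Mag*, *Mog*, *Mobp*, *Mal*, *Cnp*, *Cldn11*, *Opalin* and *Ermn*, of the 32883 genes listed for each library. They were chosen by name, and all 9 were found once each in both libraries.

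Single cells of the hypothalamus of female Sprague Dawley rats were measured at PND 29 (4 weeks of age) by droplet 3′ RNA sequencing. The study asked what a neonatal estrogen treatment that sterilizes female rats does to the hypothalamus. SC300 rats had received a Silastic capsule with 300 µg of estradiol benzoate (EB) at PND 0.5, and their library is labelled EB300. The series' own design text names only sesame oil as the content of the SC300 capsules, so the estradiol benzoate is taken from the methods and the label. Control rats had a capsule with oil only according to the methods and are labelled intact. There was 1 library per group, each from the pooled tissue of 3 rats, so rats of a group cannot be told apart and no test between groups can be made. The intervals given are 95% intervals for counting error only, and a difference between SC300 and Control is a difference between these libraries.

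The Control library held 4488 barcodes and the SC300 library 4524, of which 4296 and 4379 had at least 200 detected genes. The median was 7986 UMIs (counted mRNA molecules) per kept barcode in Control and 8182 in SC300. The libraries shared 9 barcode sequences, and none of them was in an oligodendrocyte class in both. Levels are CPM, the UMIs of a gene in a class of barcodes scaled to the same total of UMIs for every class. A UMI stands for 1 molecule whatever the length of the transcript, so levels of different genes were compared without a length correction.

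Cells were sorted into stages by marker genes. Precursors had at least 1 UMI of *Pdgfra*, and there were 443 in Control and 464 in SC300. Newly formed cells had a UMI of *Enpp6* or *Gpr17* and none of *Pdgfra*, and there were 239 and 206. Mature cells had at least 4 UMIs of *Mog*, *Opalin* and *Ermn* together and no UMI of *Pdgfra*, *Enpp6* or *Gpr17*, and there were 250 and 284. Another 126 Control and 193 SC300 barcodes met the newly formed and the mature rule at once. They were left out of both classes and are called mature with *Enpp6* or *Gpr17*. The 12 and 16 barcodes with *Pdgfra* that also met the mature rule were kept apart. *Mog*, *Opalin* and *Ermn* were therefore set by the rule to be high in both mature classes and low elsewhere, and their levels by stage are a description only. The other 6 genes were not used to choose cells. Leaving out the barcodes of both rules still lowers them in newly formed cells, since they were higher in those barcodes.

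The mature rule divided the barcodes cleanly. In Control, 17 barcodes had 3 UMIs of *Mog*, *Opalin* and *Ermn* together, just outside the rule, and 7 had 4, just inside it. In SC300 these were 18 and 2 barcodes. Barcodes with 100 or more such UMIs numbered 202 in Control and 305 in SC300.

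The newly formed class was not one kind of cell. A UMI of the lineage transcription factors *Olig1*, *Olig2* or *Sox10* was found in 103 of the 239 Control barcodes (43.1%) and in 108 of the 206 SC300 barcodes (52.4%). Of the 136 and 98 barcodes without one, 114 and 86 had microglia and macrophage markers as their leading type. Of all barcodes without a lineage UMI whose leading markers were those of microglia and macrophages, 22.7% in Control (116 of 511, exact binomial interval 19.1% to 26.6%) and 17.3% in SC300 (86 of 497, 14.1% to 20.9%) had an *Enpp6* UMI, against 0.217% to 1.46% for the neuron-like, astrocyte-like and vascular-like barcodes. The microglia and macrophage-like class had median depths of 6288 UMIs in Control and 7001 in SC300. These were 25069 and 25100 in the neuron-like class, 6343 and 6505 in the astrocyte-like and 7936 and 9051 in the vascular-like class. These classes leave out every barcode with an *Enpp6* UMI, so they are not the sets counted above. The levels of newly formed cells below are therefore given for the barcodes with a lineage UMI and also for the rule as it stands. Requiring a lineage UMI did not remove all microglial RNA, since *C1qa*, a complement gene of microglia, still stood at 642 CPM in Control and 771 in SC300 in these barcodes, against 16.6 and 30.7 in mature cells. Precursors had a lineage UMI in 93.0% of Control and 88.8% of SC300 barcodes, and stromal markers led in 10 of the 31 and 22 of the 52 that lacked one. Both mature classes had one in at least 98.8% of barcodes in each library. Of the genes of Schwann cells, the myelinating cells of peripheral nerves, *Prx* and *Ncmap* were at 0 in mature cells of both libraries.

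In mature cells, the most abundant of the 9 genes was *Cnp*, which encodes the myelin enzyme 2′,3′-cyclic nucleotide phosphodiesterase, at 13809 CPM in Control (13707 to 13912) and 14056 in SC300 (13963 to 14149). *Mbp*, the gene of myelin basic protein, which compacts the myelin membrane and whose mRNA is carried into the processes of the cell, stood at 10401 CPM in Control (10313 to 10490) and 9075 in SC300 (9001 to 9150). *Cldn11*, the claudin of the tight junctions between myelin layers, followed at 7807 and 7654 CPM. The order of these 3 genes was the same in both libraries, and their intervals did not overlap.

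*Mag*, an adhesion molecule on the membrane next to the axon, stood at 5339 CPM in Control and 5279 in SC300. *Mal*, a small proteolipid of membrane trafficking, stood at 4942 and 5061 CPM. *Mog*, the glycoprotein on the outer face of myelin, was at 2722 and 2740 CPM. The intervals of *Mag* (5276 to 5403 in Control, 5222 to 5336 in SC300) and *Mal* (4881 to 5003 and 5006 to 5117) did not overlap, with *Mag* higher in both libraries. This order is that of the summed counts. Medians over single mature cells had the other order, with *Mag* at 3908 and *Mal* at 4586 CPM in Control, and at 4527 and 4907 in SC300.

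The lowest levels were those of *Mobp*, a basic protein of compact myelin, at 1426 CPM in Control and 1333 in SC300, of *Opalin*, a transmembrane protein of oligodendrocytes, at 1357 and 1248 CPM, and of *Ermn*, a cytoskeletal protein of late oligodendrocytes, at 1323 and 1357 CPM. Their order was not the same in the libraries. In Control the intervals of *Opalin* (1325 to 1390) and *Ermn* (1291 to 1355) overlapped, and in SC300 those of *Mobp* (1305 to 1362) and *Ermn* (1328 to 1386) did. Together the 9 genes took 4.91% of all UMIs of mature cells in Control and 4.78% in SC300.

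**Figure D1:**
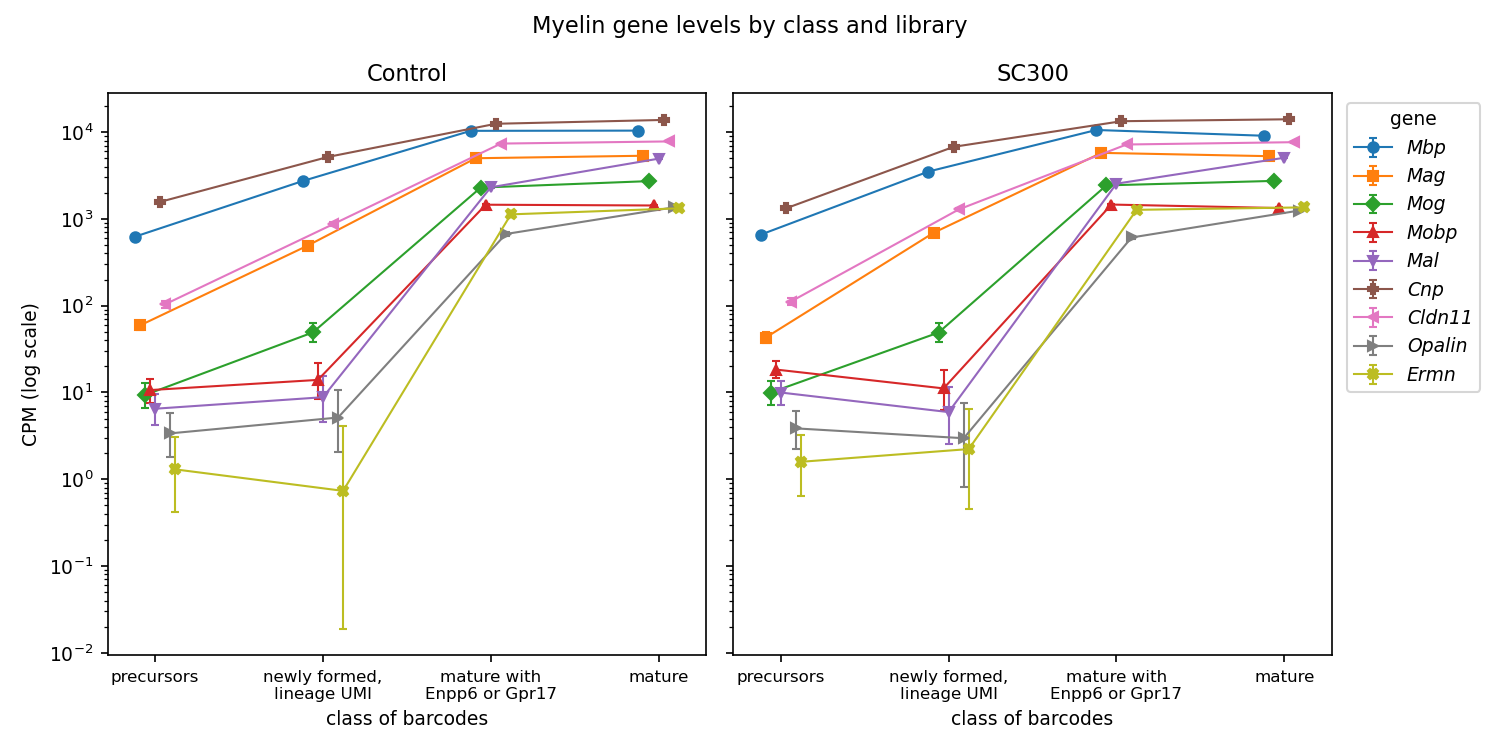
CPM of the 9 genes (log axis) in 4 classes of oligodendrocyte barcodes, Control on the left and SC300 on the right; points are class levels from 1 library and bars are 95% Poisson intervals. *Cnp* and *Mbp* start near 1000 CPM in precursors and are higher in newly formed cells, while *Mal*, *Mobp*, *Opalin* and *Ermn* stay under 20 CPM until the mature classes.

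The 9 genes differed in how much of their mature level was present at the earlier stages. *Cnp* was already at 1570 CPM in Control precursors and 1320 in SC300 precursors, and 95.5% and 93.1% of precursors had a *Cnp* UMI. In newly formed cells with a lineage UMI it stood at 5175 and 6765 CPM, which is 37.5% and 48.1% of its mature level. *Mbp* stood at 624 and 658 CPM in precursors and at 2732 and 3512 in newly formed cells with a lineage UMI, 26.3% and 38.7% of its mature level. These 2 genes were the only members over 20% of the mature level in the whole of this class in either library. The precursor level of *Mbp* was not above that of every type outside the lineage. Astrocyte-like barcodes had 452 CPM in Control and 852 in SC300, the latter above SC300 precursors. The other named types had 121 to 285 CPM in Control and 153 to 241 in SC300.

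*Cldn11* and *Mag* came next. *Cldn11* stood at 104 and 112 CPM in precursors and at 867 (819 to 918) and 1283 (1224 to 1345) CPM in newly formed cells with a lineage UMI, 11.1% and 16.8% of the mature level. *Mag* stood at 59.2 and 42.8 CPM in precursors and at 493 (457 to 532) and 691 (647 to 736) in such newly formed cells, 9.24% and 13.1% of the mature level. Both genes were higher in the barcodes of this class with at least 2 UMIs of *Enpp6* and no *Gpr17*, with *Cldn11* at 23.0% and 28.3% of the mature level and *Mag* at 17.6% and 23.2%. A few barcodes carried much of the precursor level of *Mag*, since 1 barcode held 24.6% of its UMIs in Control and 54.0% in SC300. For *Cldn11*, 1 precursor barcode held 23.0% and 26.4%.

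*Mal* and *Mobp* were low in precursors and in newly formed cells, a class that leaves out the barcodes meeting both rules. The left-out barcodes had 2312 CPM of *Mal* in Control and 2546 in SC300, and 1456 and 1462 of *Mobp*. The low levels in newly formed cells therefore depend on leaving those barcodes out, though the rule did not use these 2 genes. *Mal* stood at 6.49 and 9.97 CPM in precursors, at 8.81 and 5.93 in newly formed cells with a lineage UMI, and at 4942 and 5061 in mature cells. *Mobp* stood at 10.6 and 18.4 CPM in precursors and at 13.9 (8.40 to 21.8) and 11.1 (6.23 to 18.4) in these newly formed cells. Both were under 1% of their mature level there in both libraries. *Mog* stood at 49.2 and 48.96 CPM, *Opalin* at 5.14 and 2.97 CPM and *Ermn* at 0.734 and 2.23 CPM in the same cells, with the rule limiting all 3. *Opalin* rested on 7 and 4 UMIs there and *Ermn* on 1 and 3. Astrocyte-like barcodes had 14.1 CPM of *Mobp* in Control and 26.1 in SC300, above precursors in both libraries. The other named types outside the lineage were below precursors for *Mobp*.

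The newly formed cells with a lineage UMI were divided further by *Gpr17* and *Enpp6*. Barcodes with *Gpr17* and no *Enpp6* (14 in Control, 13 in SC300) had 162 and 329 CPM of *Mbp* beside 7598 and 6075 CPM of *Cnp*. Barcodes with both genes (10 and 22) had 2370 and 3668 CPM of *Mbp*, and those with at least 2 UMIs of *Enpp6* and no *Gpr17* (50 and 49) had 5261 and 5448. *Cnp* stood at 9572 and 9392 CPM with both genes and at 7403 and 9097 with at least 2 UMIs of *Enpp6*. *Mag* went from 35.2 and 14.9 CPM with *Gpr17* alone to 940 and 1223 CPM with at least 2 UMIs of *Enpp6* alone, and *Cldn11* from 120 and 29.9 CPM to 1796 and 2169. The remaining 29 Control and 24 SC300 barcodes, with 1 UMI of *Enpp6* and no *Gpr17*, were unlike these, with *Cnp* at 714 and 685 CPM and *Mbp* at 572 and 1213. *C1qa* was at 1662 and 2014 CPM in them, against 74.5 and 604 CPM with at least 2 UMIs of *Enpp6*. *Mal* was at most 14.1 CPM in all 4 of these sets in both libraries. The sets with *Gpr17* rest on few barcodes.

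The next count leaves out the barcodes that met both rules and requires no lineage UMI. Of the 9 members, 8 were over 4-fold higher in mature than in newly formed cells in both libraries, against 3.29% of 9978 genes counted. *Cnp* was the exception, with a log2 ratio of 2.26 in Control and 1.88 (1.85 to 1.91) in SC300. *Mbp* had 2.66 and 2.18, *Cldn11* 4.05 and 3.43, and *Mag* 4.33 and 3.80. With a lineage UMI required, 7 of 9 were over 4-fold. The share of all genes was not counted with that requirement, so this second count only describes the members. *Mog*, *Opalin* and *Ermn* are in both counts only through the rule.

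The stretches upstream of the start are shown for the 4 members in which the first of the motifs named below was found, *Cnp*, *Mag*, *Mal* and *Opalin*. They are the 250 bases before the annotated start on the strand of the gene, from RefSeq on build GRCr8, a table that matched 7 of the 9 members. *Mog* and *Ermn* were not matched. Capitals mark CTGGCAC or its reverse complement GTGCCAG, a sequence of the kind bound by the myelin regulator MYRF, and ACAAAG or its reverse complement CTTTGT, of the kind bound by SOX factors such as SOX10. The motifs were searched on both strands.
*Cnp*, chr10:86011254-86011503, plus strand: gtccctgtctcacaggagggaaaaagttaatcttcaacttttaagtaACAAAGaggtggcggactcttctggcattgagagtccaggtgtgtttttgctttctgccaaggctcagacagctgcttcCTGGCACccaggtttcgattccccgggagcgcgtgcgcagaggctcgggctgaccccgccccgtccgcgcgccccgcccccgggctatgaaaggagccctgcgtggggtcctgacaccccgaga
*Mag*, chr1:95291045-95291294, minus strand: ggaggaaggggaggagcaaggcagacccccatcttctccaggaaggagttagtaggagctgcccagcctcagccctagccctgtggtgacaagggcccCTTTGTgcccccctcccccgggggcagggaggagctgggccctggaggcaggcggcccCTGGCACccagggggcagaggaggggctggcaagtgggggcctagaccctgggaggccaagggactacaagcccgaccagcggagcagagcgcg
*Mal*, chr3:135341424-135341673, minus strand: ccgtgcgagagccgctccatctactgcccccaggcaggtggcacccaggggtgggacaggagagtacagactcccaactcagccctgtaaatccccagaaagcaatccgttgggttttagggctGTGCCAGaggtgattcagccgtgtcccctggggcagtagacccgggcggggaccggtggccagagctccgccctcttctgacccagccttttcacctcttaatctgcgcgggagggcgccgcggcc
*Opalin*, chr1:249858191-249858440, minus strand: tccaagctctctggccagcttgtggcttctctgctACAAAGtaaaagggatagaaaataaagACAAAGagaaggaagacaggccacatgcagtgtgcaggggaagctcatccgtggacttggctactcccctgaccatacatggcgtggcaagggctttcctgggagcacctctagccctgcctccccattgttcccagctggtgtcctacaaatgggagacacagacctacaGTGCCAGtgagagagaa

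The CTGGCAC sequence, by which these 4 stretches were chosen, occurred once in each. It began 124 bases before the start in *Cnp*, 94 in *Mag*, 126 in *Mal* and 17 in *Opalin*. Among all 33469 windows of the same length, 3.78% held it, and the windows of *Mbp*, *Mobp* and *Cldn11* did not. The ACAAAG sequence was in 5 of the 7 matched members and in 16.3% of all windows, and the window of *Mobp* alone held it 8 times. These matches describe the letters only, and no binding was measured.

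*Mal* and *Opalin* were lower where *Enpp6* or *Gpr17* was still detected. Among barcodes of the mature rule without *Pdgfra*, 33.5% in Control (126 of 376) and 40.5% in SC300 (193 of 477) still had a UMI of *Enpp6* or *Gpr17*. *Mal* stood at 2312 and 2546 CPM in these barcodes against 4942 and 5061 in mature cells without those genes, a log2 difference of 1.10 (1.06 to 1.13) in Control and 0.99 (0.96 to 1.02) in SC300. *Opalin* stood at 670 and 610 CPM against 1357 and 1248, a log2 difference of 1.02 (0.95 to 1.09) and 1.03 (0.97 to 1.09). These 2 of the 9 members were over 1.5-fold higher in both libraries, against 3.04% of the 9047 genes counted. The other 7 members lay within 0.25 of 0 on the log2 scale in each library.

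The same was seen when these barcodes were divided by their number of *Enpp6* UMIs, a division chosen after seeing the data. Relative to barcodes with 0 *Enpp6* UMIs, *Mal* stood in Control at 69.8% with 1 UMI, 63.9% with 2 to 4, 39.0% with 5 to 9 and 8.66% with 10 or more. In SC300 these values were 88.3%, 63.98%, 51.7% and 21.9%. *Opalin* went from 64.9% with 1 UMI to 20.7% with 10 or more in Control and from 74.5% to 28.1% in SC300. As counted, both genes went down at every step in both libraries.

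None of the other genes went down at every step in both libraries, though *Mog* and *Cldn11* did in Control. *Ermn* kept at least 95.5% of its level up to 9 *Enpp6* UMIs in Control and at least 109% in SC300, and stood at 26.7% and 63.5% with 10 or more. *Mog* likewise kept at least 90.2% up to 9 UMIs and stood at 45.6% and 70.5% with 10 or more. *Mbp* was at 116% and 142% in the barcodes with 10 or more *Enpp6* UMIs, and *Cldn11* at 88.2% and 88.4%. The barcodes with 10 or more *Enpp6* UMIs (23 in Control, 56 in SC300) were deeper, with medians of 29641 and 32499 UMIs against 19620 and 20044 at 0. With every barcode thinned to 2000 UMIs, *Mal* in the last step stood at 5.69% and 22.2% and *Opalin* at 20.4% and 26.1%. Thinned *Mal* in Control did not go down between 1 UMI (66.1%) and 2 to 4 UMIs (68.5%).

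**Figure D2:**
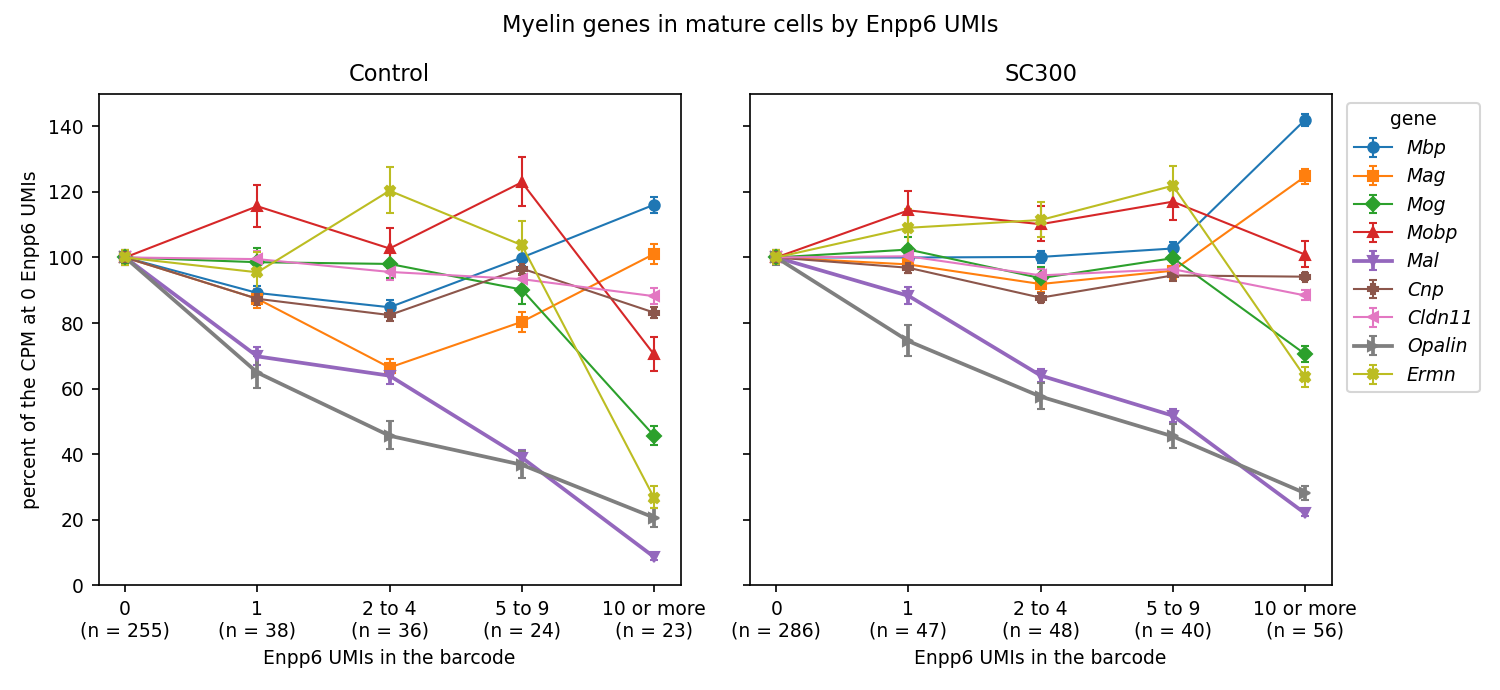
Level of each gene in barcodes of the mature rule without *Pdgfra*, as a percent of its CPM in barcodes with 0 *Enpp6* UMIs, against the number of *Enpp6* UMIs in the barcode; n is the number of barcodes and bars are 95% Poisson intervals of each step. *Mal* and *Opalin* (thick lines) go down at every step in both libraries, to 8.66% and 20.7% in Control and 21.9% and 28.1% in SC300. Of the other genes, *Mog* (to 45.6%) and *Cldn11* (to 88.2%) go down at every step in Control, and none does in both libraries.

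*Klk6*, a protease gene of mature oligodendrocytes, was also used to divide the same barcodes. It was detected in 341 Control and 441 SC300 barcodes and absent from 35 and 36. *Ermn* stood at 1317 CPM with *Klk6* and 442 without in Control, and at 1370 and 500 in SC300. *Mog* stood at 2659 and 1407 CPM in Control and at 2674 and 1464 in SC300. *Mal* was lower without *Klk6* as well, with 4162 CPM beside it and 1534 without in Control and 4045 and 2122 in SC300. *Opalin* was at 1101 and 1095 CPM in Control and at 980 and 667 in SC300. *Mbp* was not lower without *Klk6*, at 10186 CPM with it and 12692 without in Control and at 9637 and 11558 in SC300. The barcodes without *Klk6* had fewer UMIs, with medians of 12942 and 19290 against 20149 and 21070.

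Mature cells also differed among themselves. The middle 50% of mature Control cells lay between 3263 and 6219 CPM of *Mal*, and between 865 and 1669 CPM of *Opalin*. In SC300 these ranges were 3483 to 6736 and 895 to 1552. *Cldn11* was more even, with 6746 to 8818 CPM in Control and 7009 to 9046 in SC300. Across the thinned barcodes of the mature rule, the pair with the highest correlation was *Mag* and *Cnp* in both libraries, with Pearson's r of 0.59 over 372 Control barcodes and 0.47 over 477 SC300 barcodes. *Mag* and *Ermn* had the lowest, at -0.18 in both. The barcodes of a library share that library, and the values are descriptions.

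SC300 and Control mature cells had like levels of the 9 genes. None of the 9 was over 1.5-fold apart, against 8.49% of the 8018 genes counted in mature cells (at least 50 UMIs over both libraries). For 9 genes a count of 0 is not far from that share. Each member had at least 6704 UMIs in each library, so many of the genes counted had far fewer. The largest difference was that of *Mbp*, with 10401 CPM in Control and 9075 in SC300, which gives -0.20 (-0.21 to -0.18) as the log2 ratio of SC300 over Control. *Opalin* had -0.12 (-0.17 to -0.07) and *Mobp* -0.10 (-0.14 to -0.05). The other 6 lay between -0.03 and 0.04, so that the median over the members was -0.02, against 0.00 over all genes counted. The intervals leave out a 1.5-fold difference between these libraries for each of the 9 genes, and the spread between rats is not known. In mature cells with *Enpp6* or *Gpr17*, the log2 ratios of the members lay between -0.13 and 0.21.

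In newly formed cells by the rule, 2 of the 6 members with at least 50 UMIs were over 1.5-fold apart, against 16.8% of the 8218 genes counted. *Cldn11* stood at 470 CPM in Control and 710 in SC300, which gives 0.59 (0.49 to 0.70) as the log2 ratio. *Mobp* stood at 14.4 and 8.89 CPM, a log2 ratio of -0.70 (-1.53 to 0.10), from 38 and 22 UMIs. *Cnp*, *Mag* and *Mbp* were higher in SC300 as well, with 0.40 (0.36 to 0.45), 0.51 (0.37 to 0.66) and 0.28 (0.22 to 0.34). The share of barcodes without a lineage UMI differed between the libraries, as given above. Among the barcodes with a lineage UMI none of the 5 members counted was over 1.5-fold apart, and *Cldn11* had a log2 ratio of 0.56, *Mag* 0.49, *Cnp* 0.39, *Mbp* 0.36 and *Mog* -0.01.

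In precursors, 2 of the 7 members counted were over 1.5-fold apart, against 10.8% of 9949 genes. *Mobp* stood at 10.6 CPM in Control and 18.4 in SC300, which gives 0.79 (0.23 to 1.37) as the log2 ratio, and *Mal* at 6.49 and 9.97 CPM, a log2 ratio of 0.62 (-0.12 to 1.39). Both values rest on few molecules, 41 and 81 UMIs of *Mobp* and 25 and 44 of *Mal*, and a single SC300 barcode held 21.0% of the *Mobp* UMIs and a single one 20.5% of the *Mal* UMIs. Without barcodes over 20% mitochondrial UMIs none of the 7 was over 1.5-fold apart, and *Mobp* had a log2 ratio of 0.10. *Cnp*, the most abundant of the members in precursors, had -0.25 (-0.30 to -0.20).

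**Figure D3:**
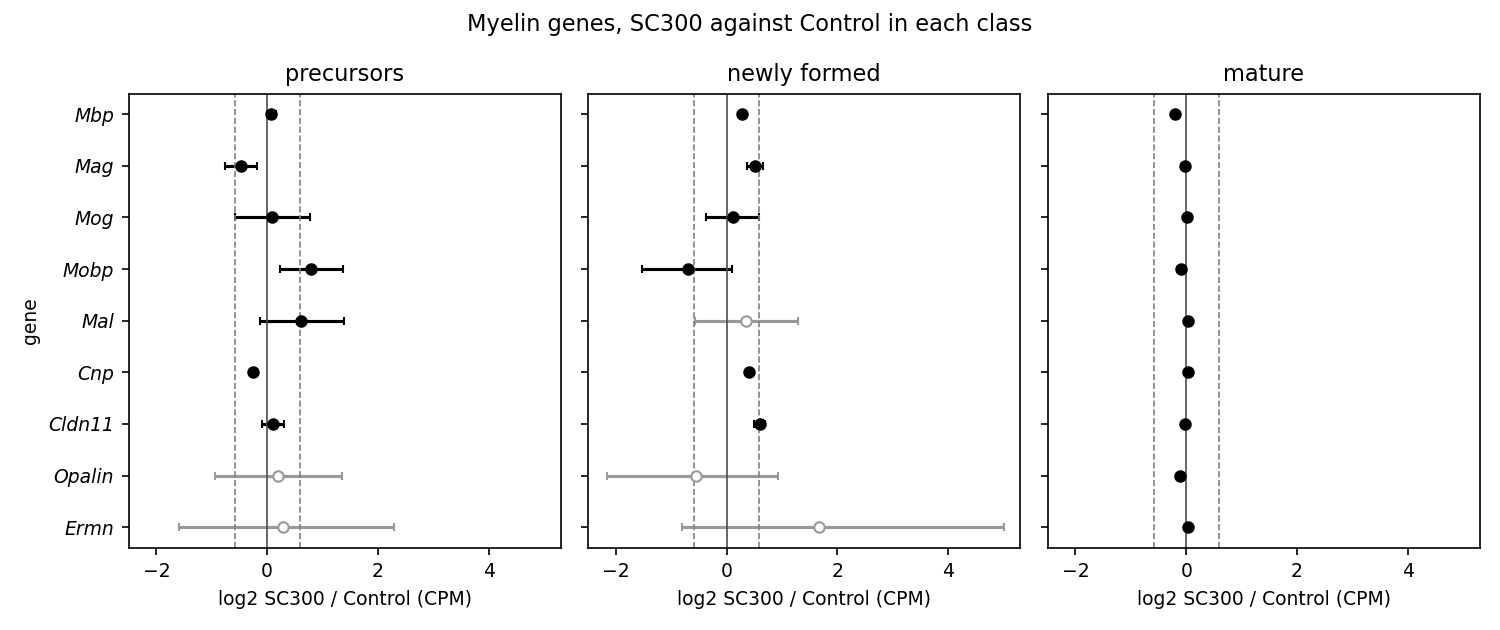
Log2 ratio of SC300 over Control CPM for each gene in precursors, newly formed and mature cells, with 95% intervals for counting error; dashed lines mark 1.5-fold, and open grey points have under 50 UMIs over both libraries. In mature cells every point lies between -0.20 and 0.04, and the wide intervals are those of the genes with few UMIs in the earlier stages.

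Outside the lineage, meaning in barcodes that met none of the stage rules, the members were low but not equally low. Each of the 9 was under 10% of its mature level in all 5 named other types (neuron-like, astrocyte-like, vascular-like, ependymal and tanycyte-like, and microglia and macrophage-like), in which *Mog*, *Opalin* and *Ermn* were limited by the rule. The share of all genes that would meet this limit was not counted, so the count only describes the members. *Mag*, *Cldn11*, *Mal*, *Mog*, *Opalin* and *Ermn* stood at 0.0471% to 0.488% of the mature level in these types in both libraries. *Mbp* stood at 1.17% to 4.34% in Control and 1.69% to 9.38% in SC300, and *Mobp* at 0.286% to 0.989% and 0.354% to 1.95%, with both genes highest in astrocyte-like barcodes. A UMI of *Olig1*, *Olig2* or *Sox10* was present in 57.6% of Control and 63.7% of SC300 astrocyte-like barcodes. In the other named types this share was 4.61% to 14.4%. *Cnp* was highest in microglia and macrophage-like barcodes, at 404 CPM in Control and 384 in SC300, 2.93% and 2.73% of its mature level. *Mal* was highest in ependymal and tanycyte-like barcodes, at 23.5 and 17.1 CPM. In the 294 and 262 barcodes that no marker list named, *Mbp* reached 20.7% and 20.9% of the mature level.

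*Mbp* was out of the ratio to the other genes that it has in mature cells. There were 1.95 *Mbp* UMIs per *Mag* UMI in mature Control cells and 1.72 in mature SC300 cells. In astrocyte-like barcodes there were 45.1 and 50.4, and in neuron-like barcodes 7.36 and 12.8. The source of these *Mbp* UMIs was not tested. *Mbp* was also the member with the largest difference between the libraries in astrocyte-like barcodes, with 452 CPM in Control and 852 in SC300, which gives 0.92 (0.87 to 0.96) as the log2 ratio. A few barcodes carried part of it, since 4 Control and 23 SC300 astrocyte-like barcodes had 100 or more *Mbp* UMIs. The difference was not particular to *Mbp*. *Mobp* had a log2 ratio of 0.89 (0.60 to 1.18) in these barcodes, *Ermn* 0.78 (0.05 to 1.54) and *Mag* 0.75 (0.41 to 1.11). The other members lay between 0.01 and 0.41.

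The level of *Mbp* outside the lineage went with the share of mitochondrial UMIs. With mitochondrial UMIs left out of the total, *Mbp* in other barcodes stood in Control at 1.66% of the mature level where that share was under 10%, at 2.07% between 10% and 20%, at 9.89% between 20% and 40% and at 42.2% above 40%. In SC300 these values were 2.25%, 2.24%, 13.5% and 78.6%. *Mobp* went from 0.461% to 10.8% in Control and from 0.807% to 13.3% in SC300 between the lowest and the highest of these shares. *Mag* went from 0.217% to 0.972% in Control and from 0.238% to 1.58% in SC300, and *Cldn11* from 0.192% to 1.02% and from 0.240% to 1.05%. *Cnp* was at 1.41% and 1.56% in Control and at 1.62% and 2.03% in SC300.

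**Figure D4:**
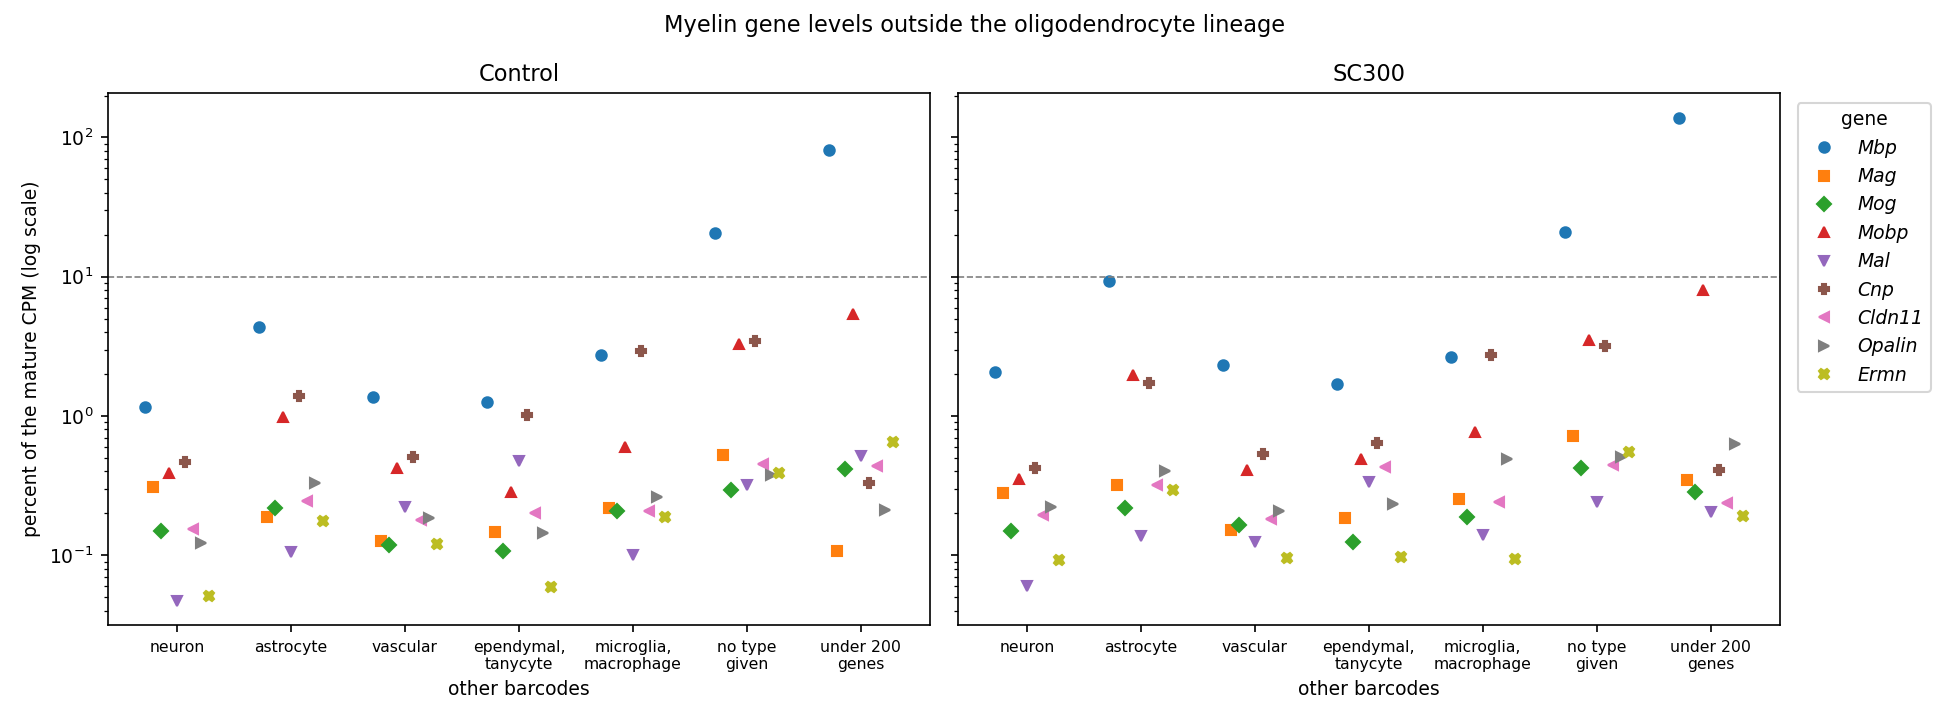
Level of each gene outside the lineage as a percent of its mature CPM (log axis), Control on the left and SC300 on the right; the dashed line marks 10%, and the last column holds barcodes under 200 detected genes with under 10% haemoglobin UMIs. *Mbp* is the highest gene in every column except microglia and macrophage, where *Cnp* is slightly above it, and reaches 81.8% and 139% in the last one, with *Mobp* second there at 5.38% and 8.01%.

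The barcodes that the limit of 200 detected genes left out were not part of these values. There were 133 in Control and 108 in SC300 with under 10% haemoglobin UMIs, and 87.0% and 87.5% of their UMIs were mitochondrial. *Mbp* stood there at 8513 and 12588 CPM, which is 81.8% and 139% of the mature level. Most of these UMIs came from a few barcodes, since 8 Control and 15 SC300 barcodes with 100 or more *Mbp* UMIs held 2765 of the 2994 and 4686 of the 4832 *Mbp* UMIs. In those 8 and 15 barcodes 14.0% and 41.8% of all UMIs were mitochondrial, well below the share in the whole class. The barcodes rich in *Mbp* were thus not those richest in mitochondrial UMIs. In the whole class *Mag* stood at 5.69 and 18.2 CPM, *Cnp* at 45.5 and 57.3, and *Mobp* at 76.8 and 107.

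Across all barcodes, with or without that limit, *Mbp* made up 10% or more of the UMIs in 16 Control and 17 SC300 barcodes with at least 10 *Mbp* UMIs, a choice made after seeing the data. Its share in them reached 56.7% in Control and 73.7% in SC300, while no mature cell exceeded 7.49% and 2.01%. They held a median of 838 and 654 UMIs, and 8 and 14 of them had under 200 detected genes. They held 5001 *Mbp* UMIs in Control and 5352 in SC300. Beside these stood 39 and 32 UMIs of *Mobp*, 18 and 7 of *Cnp*, and 4 and 2 of *Mag*. Per 1000 *Mbp* UMIs there were 0.800 and 0.374 *Mag* UMIs, against 513 and 582 in mature cells, and 7.80 and 5.98 *Mobp* UMIs, against 137 and 147. *Mobp* was thus the member nearest to its mature ratio to *Mbp* in both libraries, and still well below it. The cause of these barcodes was not tested.

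**Figure D5:**
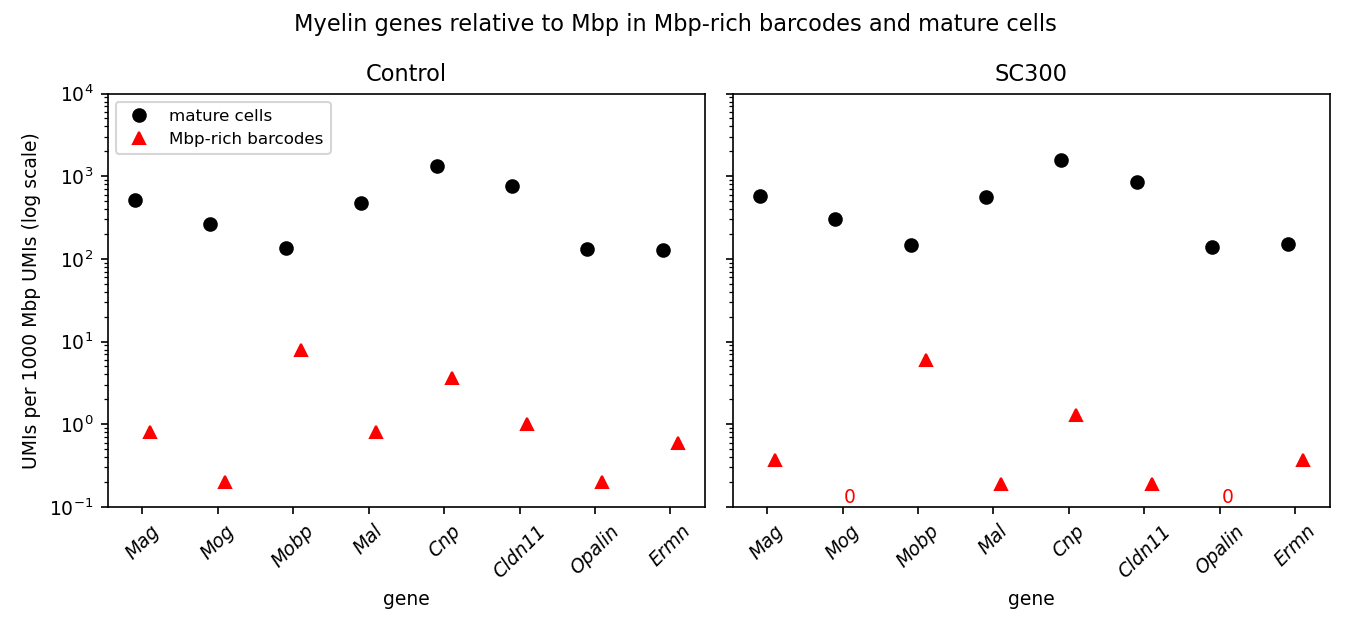
UMIs of the other 8 members per 1000 *Mbp* UMIs (log axis) in mature cells (black circles) and in the barcodes with 10% or more *Mbp* (red triangles), for Control and SC300; a red 0 marks a gene with no UMI. Every gene is far lower in the *Mbp*-rich barcodes, and *Mobp*, with 7.80 and 5.98 UMIs, is the highest of the 8 members.

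Other genes of myelination were read from lists. Among 19 further myelin membrane and adhesion genes counted, 16 were over 1.5-fold higher in mature cells than in precursors in both libraries and 1 was lower, and among 9 myelin lipid synthesis genes 8 were higher and 1 lower. The 6 members that the rule did not use were all higher, and *Mog*, *Opalin* and *Ermn* were set to be higher by the rule. Over all 10944 genes counted, 963 were higher and 6074 lower. *Cd9*, a tetraspanin, was already high in precursors, at 3759 CPM in Control and 3054 in SC300, against 4763 and 4636 in mature cells. *Pllp*, plasmolipin, went from 1257 and 1114 CPM to 2306 and 2299, and *Tspan2*, another tetraspanin, from 177 and 135 CPM to 1693 and 1680. *Ugt8*, which makes the myelin lipid galactosylceramide, went from 129 and 98.8 CPM to 1282 and 1187, and *Fa2h*, which adds its hydroxyl group, from 74.2 and 55.1 CPM to 767 and 680. *Cers2* and *Elovl1*, which make very long chain lipids, were at 892 and 795 CPM and at 812 and 713 CPM in mature cells.

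Of 11 oligodendrocyte transcription factors counted, 5 were higher in mature cells and 4 lower. *Olig1* stood at 1773 and 1765 CPM in mature cells and *Sox10* at 297 and 279, and *Nkx6-2*, a homeobox gene of mature oligodendrocytes, went from 23.6 and 23.1 CPM in precursors to 844 and 934. Of 11 late mature markers counted 8 were higher and 2 lower, with *Car2*, a carbonic anhydrase, going from 51.9 and 47.4 CPM to 3344 and 3304. *Sirt2*, of the newly formed list, was at 591 and 469 CPM in precursors and at 1663 and 1492 in mature cells. All 6 inhibitors of differentiation counted were lower in mature cells, and so were the 6 precursor markers counted beside *Pdgfra*, which the rule set to 0 there. Among the genes of these lists, 4 were over 1.5-fold lower in SC300 than in Control mature cells and 3 were higher. Of all 8018 genes counted, 180 were lower and 501 higher, together 8.49%. The list genes with enough UMIs for this were 19 of the membrane and adhesion list, 8 of lipid synthesis, 10 transcription factors and 10 late mature markers. There were also 5 newly formed markers, 3 precursor markers and 2 inhibitors of differentiation. *S100b*, a calcium binding protein of glia in the late mature list, had the largest difference, with 486 CPM in Control and 178 in SC300 and a log2 ratio of -1.45 (-1.55 to -1.34). *Bmp4*, a signal that holds back oligodendrocyte differentiation and is made by newly formed cells, stood at 169 CPM in Control and 78.1 in SC300, which gives -1.11 (-1.28 to -0.95) as the log2 ratio, and it was lower in SC300 precursors as well, at 290 and 101 CPM. *Rras2* had -0.81 (-1.11 to -0.51) and *Id2*, an inhibitor of differentiation, had -0.73 (-1.37 to -0.10). The level of *Id2* was low, at 10.1 CPM in Control and 6.07 in SC300. *Id4*, another such inhibitor, was higher in SC300, with 17.4 and 35.3 CPM and a log2 ratio of 1.02 (0.66 to 1.40), and in precursors, with 103 and 215 CPM. It was lower in SC300 in newly formed cells by the rule, with 207 and 105 CPM, and in mature cells with *Enpp6* or *Gpr17*, with 21.5 and 8.62. The precursor marker *Cacng4*, at 2.96 and 5.91 CPM, and *Itpr2*, of the newly formed list, were also higher in SC300 mature cells. *S100b* and *Itpr2* were named after their values were seen. None of the counted genes of the myelin membrane or lipid synthesis lists was over 1.5-fold apart.

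The 10 genes most like the members over 20 points (classes and types of both libraries), of 6529 genes compared, included *Tmem125*, *LOC361016*, *Insc*, *S1pr5*, *Rffl*, *Gpr62*, *Klk6* and *Tmem88b*. Their Pearson's r with the mean of the members, on log2(CPM + 1), lay between 0.96 and 0.99. The points share libraries and the mature classes weigh on each value.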

How the data were processed

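The authors deposited counts of UMIs per gene and barcode for each library, made with Cell Ranger (version 3.0.1 per the file headers) against Ensembl release 96 without normalization, and these deposited counts are the only values used. The methods name a filter of 200 genes, and of the cell totals stated there one pair equals the barcodes deposited and another lies below those this filter leaves. How reads shared between similar genes were handled, and which *Mbp* transcripts were counted, is not given in the sources used here, so the Golli transcripts of the *Mbp* locus are not told apart. All intervals and floors cover counting error only.

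The 9 genes, the stages and the gene lists were chosen with earlier results of these data known. Barcodes with at least 200 detected genes were sorted by the rules given with the results. Other types were named among barcodes meeting no lineage rule, by the list with the highest share of its markers detected (at least 3 markers), and types with under 20 barcodes in a library were left out (stromal-like, with 1 and 7). Counts were summed over the barcodes of a class and divided by their total for CPM. Poisson intervals (95%) were computed for levels, exact conditional binomial intervals for ratios and Clopper-Pearson intervals for shares. A gene was counted with at least 50 UMIs over both libraries, and a count of 0 was replaced by 3 UMIs as a bound. With 1 library per group no p-value was computed. The interval code was tested on simulated counts. Named genes were all 9 members, the genes of each list with the highest CPM in mature cells (at most 4 a list), the 10 genes of most similar pattern, and the genes that choose the classes. Some genes these rules name are not reported here. Scrublet (scanpy 1.11.5) called 70 Control and 73 SC300 doublets, which were kept. Thinning drew 2000 UMIs per barcode and left out shallower ones (3 Control and 0 SC300 mature cells). Python 3.11.15, numpy 2.4.6, pandas 2.3.3 and scipy 1.17.1 were used. Promoter sequences came from RefSeq (GRCr8), a build other than the one of the files, so no position was taken from one to the other.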

Additional observations from a re-analysis of the deposited data

Results flagged for a closer look

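With 1 library per group none of these differences between libraries could be tested. From precursors to newly formed cells by the rule, *Mobp* had a log2 ratio of 0.44 (-0.24 to 1.11) in Control, an interval that spans 0. In SC300 it went down, with -1.05 (-1.80 to -0.35). These ratios rest on 41 UMIs in precursors and 38 in newly formed cells in Control, and on 81 and 22 in SC300. Between mature cells without and with *Enpp6* or *Gpr17*, *Mbp* had a log2 ratio of 0.0085 (-0.01 to 0.03) in Control, an interval that spans 0, and -0.22 (-0.24 to -0.20) in SC300. *Mag* summed over barcodes moved in opposite directions in the libraries, with 0.10 (0.07 to 0.12) and -0.13 (-0.15 to -0.10). The medians over single barcodes did not, and were higher without *Enpp6* or *Gpr17* in both libraries. For *Mag* they were 3908 CPM without and 3607 with those genes in Control, and 4527 and 3968 in SC300. For *Mbp* they were 9733 and 9203 CPM in Control, and 8924 and 8806 in SC300. In barcodes under 200 detected genes and with under 10% haemoglobin UMIs, which no comparison of stages uses, *Mbp* stood at 12588 CPM in SC300 (12236 to 12949), above the 8513 CPM of Control. Without the haemoglobin limit these levels were 7857 and 4885 CPM. No other member had 50 UMIs there.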

How the results depend on the processing

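No paired analysis was possible because each group has 1 library, and for the same reason no library could be left out. The count of members over 1.5-fold apart in mature cells was 0 under all 16 alternatives, and over all of them the log2 ratios of single members lay between -0.26 and 0.20. The count of members under 10% of the mature level in every named other type was 8 or 9. The count over 4-fold higher in mature than in newly formed cells was 7 to 9, except that it was 0 with the classes left overlapping as the rule reads, which puts mature cells into the newly formed class. For newly formed cells, 2 of 6 members over 1.5-fold apart became 0 with a mature threshold of 2 UMIs, with overlapping classes, with a lineage UMI required, with at least 2 UMIs of *Enpp6* and *Gpr17*, with a mitochondrial limit of 20% or 10% and with thinning, and 1 without doublets, with cells weighted alike and with a minimum of 200 UMIs. For precursors, 2 of 7 became 1 with a lineage UMI required and 0 with overlapping classes, with either mitochondrial limit, with thinning and with a minimum of 200 UMIs. In newly formed cells *Mobp* turned to 0.33 with overlapping classes and *Cldn11* to -0.25 with cells weighted alike, and *Mal* in precursors turned to -0.41 with cells weighted alike. Of 565 single values under an alternative, 350 stayed within the 95% interval of the reported value, 212 moved out of it and 3 changed sign; the cause was not tested. The mitochondrial limit of 10% left 85 mature cells in Control and 17 in SC300. Depth limits the values of *Mal*, *Opalin* and *Ermn* before the mature stage, where they rest on 2 to 44 UMIs a library in the classes of the rule. In newly formed cells with a lineage UMI they rest on 1 to 12.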

Other observations

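Barcodes of the mature rule that also had *Pdgfra* (12 in Control, 16 in SC300) carried the members above their precursor levels. *Mag* stood there at 5545 and 7712 CPM, *Cnp* at 12216 and 14864, *Mbp* at 7635 and 11935 and *Mal* at 2682 and 3542 (54.3% and 70.0% of the mature level), with *Pdgfra* at 66.4 and 54.4 CPM against 949 and 844 in precursors. Their median depth was 28024 UMIs in Control and 25749 in SC300, above that of mature cells. Scrublet called 3 of the 12 and 1 of the 16 as doublets.

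In the *Mbp*-rich barcodes, the iron storage gene *Fth1* had 426 UMIs in Control and 353 in SC300, 85.2 and 66.0 per 1000 *Mbp* UMIs against 511.95 and 599 in mature cells. *S100b*, a calcium binding protein of glia, had 77 and 102 UMIs, 15.4 and 19.1 per 1000 *Mbp* UMIs against 46.7 and 19.6 in mature cells, where *S100b* itself stood at 486 CPM in Control and 178 in SC300. These genes were chosen after their values were seen.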
